A study of Mus musculus with 8 samples.

Results

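The Schlafen genes are a family of interferon-inducible genes, and 7 of them were followed here in mouse macrophages: Slfn1, Slfn2, Slfn3, Slfn4, Slfn5, Slfn8 and Slfn9. They were found by their symbols in the GENCODE M21 annotation, 1 row each, among 49315 genes of the count table. All 7 passed the filter on low counts, which left 13051 genes. The members were selected on earlier values of the same comparison, their log2 fold changes between the MAARS and control gapmeR libraries, so the differences between the groups are given as a description, without a test.

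The samples were bone marrow-derived macrophages (BMDMs) of C57BL/6 mice, cultured with 10 ng/ml macrophage colony-stimulating factor and transfected with a gapmeR by lipofection. A gapmeR is a short antisense oligonucleotide with which RNase H cleaves the RNA it pairs to. In the control group (n = 4, replicates 2, 5, 6 and 7) it was negative control #1, and in the MAARS group (n = 4, replicates 9, 11, 13 and 15) it was directed against MAARS, a long noncoding RNA expressed in macrophages. The labels give 25 nM of either gapmeR, and the comparison asks which transcripts change when MAARS is silenced. Every library came from cells that had been transfected, and neither an untreated culture nor a further MAARS gapmeR was among them, so the loss of MAARS and any other effect of its oligonucleotide cannot be told apart. The age of the mice, the harvest time and whether the replicates came from separate mice or cultures were not given, so the p-values below measure the spread between these samples, which may be technical.

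Schlafen proteins share an amino-terminal core that binds RNA, and in several members this core cuts transfer RNA. The mouse family has short forms (Slfn1 and Slfn2), intermediate forms (Slfn3 and Slfn4) and long forms (Slfn5, Slfn8 and Slfn9), the last of which carry a helicase-like domain at the carboxyl end. The family was first known for restraining growth in thymocytes and for keeping T cells and monocytes quiescent. Type I interferon is the usual inducer of these genes in macrophages, and the transcription factors it activates, STAT2 and IRF9 among them, bind interferon-stimulated response elements (ISREs) in promoters.

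The 7 genes lie side by side on chromosome 11 of GRCm38, within 263806 bp. In order along the chromosome they are Slfn5 (ENSMUSG00000054404, plus strand, chr11:82951349-82964840), Slfn9 (ENSMUSG00000069793, minus, chr11:82978390-82991830), Slfn8 (ENSMUSG00000035208, minus, chr11:83002158-83020810), Slfn2 (ENSMUSG00000072620, plus, chr11:83065112-83070678), Slfn1 (ENSMUSG00000078763, plus, chr11:83116849-83122670), Slfn4 (ENSMUSG00000000204, plus, chr11:83175186-83190216) and Slfn3 (ENSMUSG00000018986, plus, chr11:83191330-83215154). The pseudogene Slfn10-ps (chr11:83028130-83040042, minus) sits between Slfn8 and Slfn2. Slfn14, a long member known from platelets and red cell precursors, follows at chr11:83275110-83286726.

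The promoters of the long members and of the shorter ones on the list held different short words. RefSeq promoter windows (GRCm38.p6, 250 bases before to 50 bases after the annotated start) were found for all 7 members. An ISRE-like word, GAAA then any 2 bases then GAAA on either strand, stood in 3 of the 7, and the 3 were the long members of the list, Slfn5, Slfn8 and Slfn9. It was in 3.44% of all 32851 windows. The stretches around it are shown because the long members of the list share the word, and the capitals mark the match:
Slfn5: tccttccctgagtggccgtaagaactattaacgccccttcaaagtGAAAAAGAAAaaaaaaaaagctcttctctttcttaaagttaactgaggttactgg
Slfn8: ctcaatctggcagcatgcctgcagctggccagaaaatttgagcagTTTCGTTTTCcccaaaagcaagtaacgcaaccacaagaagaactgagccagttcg
Slfn9: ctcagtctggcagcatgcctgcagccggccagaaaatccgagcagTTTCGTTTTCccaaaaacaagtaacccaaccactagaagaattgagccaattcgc
They are chr11:82951902-82952001 (plus strand), chr11:83020804-83020903 (minus) and chr11:82991821-82991920 (minus). In Slfn8 and Slfn9 the match reads TTTCGTTTTC, because the word lies on the other strand, and its first base is at -48 and -45 from the start. In Slfn5 it is at -155. Slfn8 has a further annotated start, from which the same match is at -136. The letters around the match in Slfn8 and Slfn9 are much alike, so these genes are not separate cases of the word.

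The short and intermediate members had no ISRE-like word in these windows. The shortened form GAAANNGAA, which overlaps the longer word, was in the same 3 members and in 8.56% of all windows. The window of Slfn14, the long relative outside the list, held this shortened form at -197 but not the longer word. A STAT-type word (TTCNNNGAA, 8.3% of windows) and an NF-kappaB-type word (0.411%) were in 0 of the 7. An ETS-type word, counted only in the form GAGGAA (28.3%), was in Slfn9 alone. On reading the windows, a word of 9 bases was noticed in Slfn1, Slfn2, Slfn3 and Slfn4, and it was then counted. ACTTCCTGG, on either strand, was in these 4 of the 7 members and in 0.843% of all windows. Read on the other strand it holds AGGAA, as the ETS-type word GAGGAA does, so other ETS-type forms were not counted apart from it. Its first base is at -74, -55, -42 and -73, respectively, and the stretches around it are shown with the word in capitals:
Slfn1: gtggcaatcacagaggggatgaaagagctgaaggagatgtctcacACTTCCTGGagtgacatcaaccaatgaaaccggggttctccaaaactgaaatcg
Slfn2: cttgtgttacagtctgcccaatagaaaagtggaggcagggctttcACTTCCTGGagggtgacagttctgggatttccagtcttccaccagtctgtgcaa
Slfn3: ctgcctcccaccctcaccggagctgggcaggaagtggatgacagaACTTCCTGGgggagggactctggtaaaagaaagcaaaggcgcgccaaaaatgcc
Slfn4: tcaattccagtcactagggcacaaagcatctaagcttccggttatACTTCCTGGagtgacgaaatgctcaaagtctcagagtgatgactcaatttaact
They are chr11:83116701-83116799, chr11:83065012-83065110, chr11:83191243-83191341 and chr11:83175068-83175166, all on the plus strand. A match describes letters in a window and shows no binding.

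**Figure D1:**
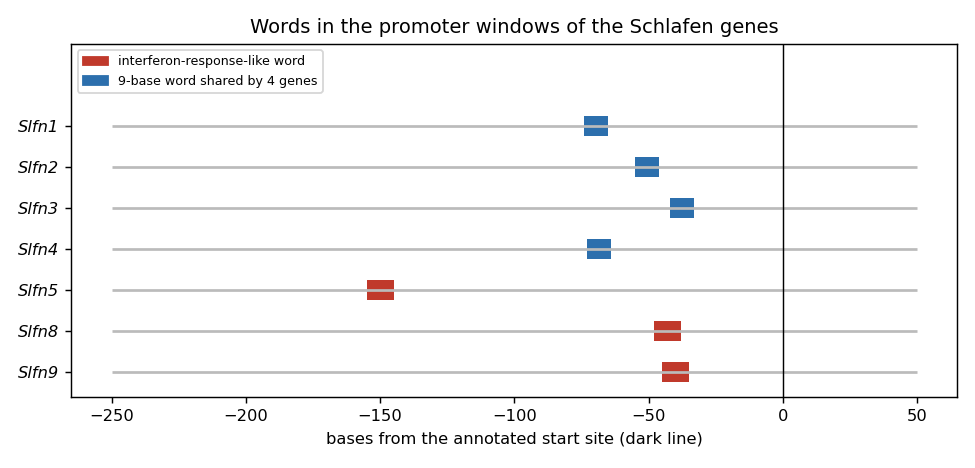
Position of 2 words in the promoter windows of the 7 Schlafen genes, in bases from the annotated start site (dark line), with grey lines for the windows of 250 bases before to 50 after it. The ISRE-like word (red) is in Slfn5, Slfn8 and Slfn9, and the 9-base word chosen after the windows were read (blue) is in Slfn1, Slfn2, Slfn3 and Slfn4.

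The libraries held 19287279 to 20567123 counts in the control group and 20839671 to 24541205 in the MAARS group. MAARS itself (Gm14461, ENSMUSG00000054510, chr2:78237547-78302230) had 238, 296, 240 and 249 counts in the controls and 163, 161, 159 and 135 after knockdown. It fell from 13.1 ± 1.36 to 6.82 ± 0.845 CPM, the count scaled to a common library size with TMM factors (mean ± SD, n = 4), a log2 fold change of -0.95 (SE 0.112, edgeR quasi-likelihood adjusted p = 5.8e-05), and the exact two-sided permutation test gave p = 0.02857, the smallest possible with 4 against 4. The first principal component of all genes held 65% of the variance and separated the groups.

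All 7 members were lower in the MAARS group and in none did the groups overlap. Non-overlap in that direction was found for 22.8% of all genes tested, and in the other direction for 19.3%. At an adjusted p under 0.05, 45.4% of all genes were called, 24.0% lower and 21.3% higher, and all 7 members were among those called lower. Since this contrast chose the members, nothing is read from these counts. The log2 fold changes ran from -5.62 for Slfn1 to -1.17 for Slfn9. All 7 members were at or below -1, as were 3.16% of genes tested, 3 were at or below -2 (0.988%) and 2 at or below -4 (0.169%). The member nearest to no change, Slfn9, ranked 343 among the lowest log2 fold changes and Slfn1 ranked 4. In these bulk libraries fewer cells that express a gene and less of its RNA per cell cannot be told apart.

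**Figure D2:**
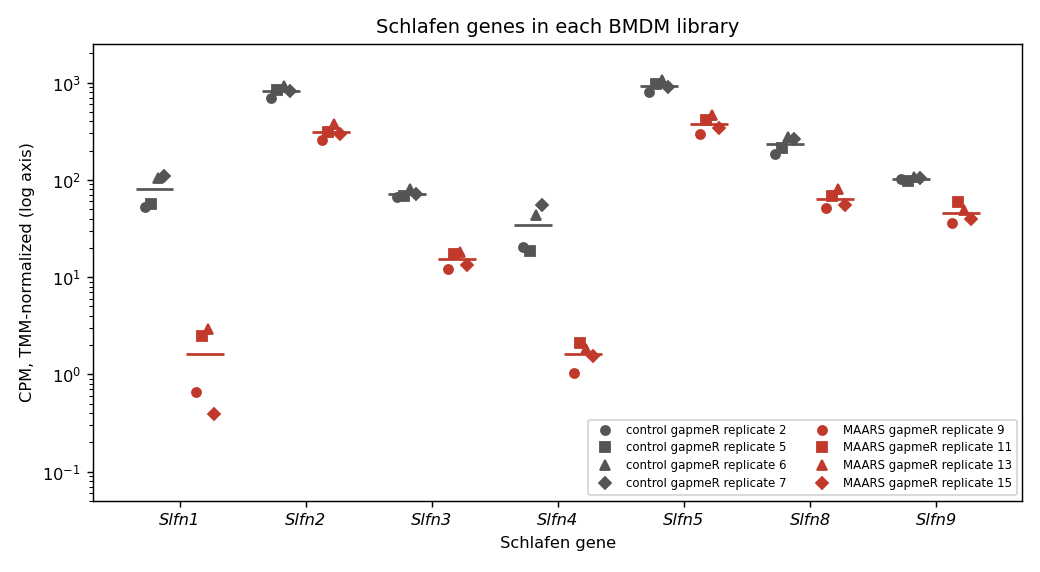
CPM of each Schlafen gene (log axis) in the 4 control gapmeR libraries (grey) and the 4 MAARS gapmeR libraries (red), 1 symbol per library, with a bar at the group mean. The groups are apart in all 7 genes, by the widest margin in Slfn1, where the lowest control was 18.1 times the highest MAARS library.

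Of the short members, Slfn1, the founder of the family, which slows the growth of thymocytes when overexpressed, differed most. Its CPM in the controls, in the order 2, 5, 6 and 7, was 52.3, 56.4, 104.6 and 108.6. In the MAARS libraries, in the order 9, 11, 13 and 15, it was 0.662, 2.51, 2.90 and 0.390. The controls thus split into a lower and a higher pair. The counts behind the MAARS values were 14, 63, 63 and 9, so replicates 9 and 15 rest on few reads. The means were 80.5 ± 30.3 and 1.61 ± 1.27 CPM, a log2 fold change of -5.62 (SE 0.417, 49.2-fold lower), with 2.04% of the control level left.

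Slfn2, whose loss in mutant mice makes T cells and monocytes leave quiescence, was the most abundant member per length and differed much less. It stood at 699.2, 846.6, 915.9 and 814.5 CPM in the controls and at 260.0, 308.7, 372.9 and 293.3 CPM after knockdown. The lowest control was 1.88 times the highest MAARS library. The means of 819.0 ± 90.4 and 308.7 ± 47.3 CPM gave a log2 fold change of -1.41 (SE 0.108, 2.65-fold lower).

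The intermediate members are near copies of each other and yet differed in size of change. Slfn3, known from T cells and from the differentiation of gut epithelium, was at 67.0, 68.2, 80.6 and 71.6 CPM in the controls and at 12.1, 17.5, 18.2 and 13.3 CPM after knockdown. The groups stood well apart, at means of 71.9 ± 6.18 and 15.3 ± 3.03 CPM, and the log2 fold change was -2.23 (SE 0.119, 4.69-fold lower).

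Slfn4, a myeloid member whose level falls as monocytes mature into macrophages, was at 20.6, 18.6, 43.8 and 54.6 CPM in the controls (402, 365, 810 and 1111 counts). After knockdown it was at 1.04, 2.11, 1.84 and 1.56 CPM (22, 53, 40 and 36 counts). As in Slfn1, control replicates 6 and 7 stood above 2 and 5, with no control in between. The means of 34.4 ± 17.7 and 1.64 ± 0.456 CPM gave a log2 fold change of -4.38 (SE 0.4, 20.8-fold lower).

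Since Slfn4 also marks young myeloid cells, the neutrophil and granulocyte precursor markers were set beside it. Their summed level was 116.5, 84.9, 148.3 and 245.2 CPM in the controls, ranked as Slfn4 was. After knockdown it was 89.0, 106.7, 141.4 and 116.7 CPM, in an order other than that of Slfn4. Of the 8 markers 7 were tested and 0 were called by edgeR (0 at an unadjusted p under 0.05, 0 by DESeq2 and 0 by limma-voom), with log2 fold changes of -0.72 to -0.28. None of the 8 was at 0 in all libraries. Their part in the values of Slfn4 was not tested.

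The long members were 2.25-fold to 3.69-fold lower. Slfn5, a nuclear member, was at 800.0, 978.6, 1061 and 896.0 CPM in the controls and at 294.1, 413.0, 464.9 and 344.0 CPM after knockdown. The means were 933.9 ± 111.8 and 379.0 ± 75.2 CPM, a log2 fold change of -1.30 (SE 0.131, 2.46-fold lower). It had the highest CPM of the family, and a gap of 1.72 times between the lowest control and the highest MAARS library.

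Slfn8 was at 183.5, 214.1, 278.5 and 265.6 CPM in the controls and at 51.5, 67.8, 80.9 and 54.9 CPM after knockdown. The log2 fold change between the means of 235.4 ± 44.4 and 63.8 ± 13.4 CPM was -1.88 (SE 0.157, 3.69-fold lower), the widest among the long members. Its near copy Slfn9 was almost level across the controls at 103.0, 97.8, 107.5 and 104.3 CPM, and stood at 35.7, 59.5, 48.4 and 39.7 CPM after knockdown. The means of 103.1 ± 4.05 and 45.8 ± 10.6 CPM gave a log2 fold change of -1.17 (SE 0.126, 2.25-fold lower), the narrowest of the 7.

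The relatives outside the chosen list were mostly silent. The pseudogene Slfn10-ps was at 69.6, 64.7, 86.4 and 78.8 CPM in the controls and at 29.1, 35.8, 37.0 and 29.2 CPM after knockdown. It fell from 74.9 ± 9.67 to 32.8 ± 4.2 CPM (log2 fold change -1.19, SE 0.105, edgeR adjusted p = 8.91e-06). Slfn14 had 1 count over the controls and 1 over the MAARS group, and Slfnl1, on chromosome 4, had 3 counts, all in control replicate 7, and 0. The antisense gene Slfn5os had 6 counts in either group, at most 3 in a library. These 3 did not pass the filter.

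Levels of different members were compared as CPM per kb of exon. In the controls the order was Slfn2 (492.2 ± 54.3), Slfn5 (147.6 ± 17.7), Slfn8 (57.6 ± 10.9), Slfn1 (43.2 ± 16.2), Slfn3 (21.1 ± 1.81), Slfn9 (17.3 ± 0.679) and Slfn4 (8.68 ± 4.46). Slfn8 and Slfn1 overlapped, at 44.9 to 68.1 against 28.1 to 58.3 CPM per kb, and are not ordered beyond their spread. After knockdown Slfn2 (185.5 ± 28.5), Slfn5 (59.9 ± 11.9) and Slfn8 (15.6 ± 3.28) kept their places.

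Below them the order differed. Slfn9 (7.68 ± 1.77 CPM per kb) stood above Slfn3 (4.48 ± 0.888), and Slfn1 (0.866 ± 0.682) had moved to the foot of the list beside Slfn4 (0.413 ± 0.115). Slfn1 ranged from 0.209 to 1.55 CPM per kb and overlapped Slfn4. The sum over the 7 members was 787.6 ± 96.2 in the controls (661.7 to 895.1) and 274.5 ± 45.7 after knockdown (225.5 to 332.8), 2.87 times lower. Slfn2 made up 62.6% ± 1.81 of that sum in the controls and 67.7% ± 1.88 after knockdown, whereas Slfn1 went from 5.39% ± 1.62 to 0.295% ± 0.204 and Slfn4 from 1.08% ± 0.496 to 0.149% ± 0.0296.

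**Figure D3:**
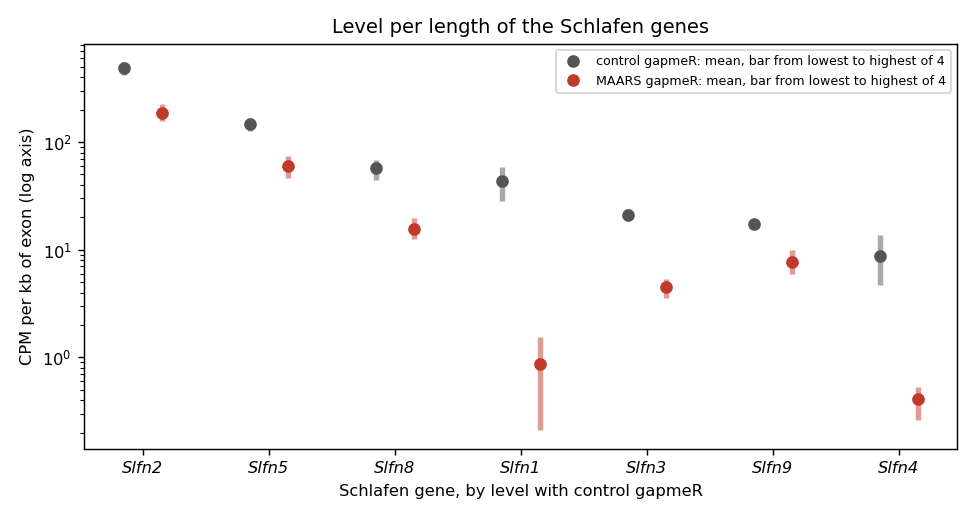
Level of each Schlafen gene in CPM per kb of exon (log axis) in control gapmeR (grey) and MAARS gapmeR (red) BMDMs. Points are group means, and bars run from the lowest to the highest library of the group. Slfn2 leads in both groups at 492.2 and 185.5 CPM per kb, and Slfn1 and Slfn4 are the lowest after knockdown.

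Within a group most members varied more than the median gene, 6 of 7 in the controls and 7 of 7 after knockdown. The coefficient of variation among controls ran from 3.93% for Slfn9 to 51.4% for Slfn4 (37.6% for Slfn1), beside a median of 8.29% over all genes tested. Among the MAARS libraries it ran from 15.3% for Slfn2 to 78.7% for Slfn1, beside a median of 7.65%. The list of 30 interferon-stimulated effectors described below had medians of 15.2% and 32.2%.

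MAARS replicates 11 and 13 were the highest pair of their group in 7 of 7 members, in 29 of 30 effectors and in 20.99% of all genes tested. Among the controls, replicates 6 and 7 were the highest pair in 5 of 7 members (Slfn1, Slfn3, Slfn4, Slfn8 and Slfn9), in 28 of 30 effectors and in 22.5% of all genes. Slfn2 and Slfn5 were highest in replicates 5 and 6. This grouping was looked at after the values had been seen, and its source was not tested. The summed stromal and endothelial markers had the same highest pairs. Their sums were 599.2, 439.7, 727.6 and 1007 CPM in control replicates 2, 5, 6 and 7. In the MAARS group, in the order 9, 11, 13 and 15, they were 694.1, 887.7, 1196 and 744.0 CPM. Nearly all of this was collagen RNA, Col1a1 (means of 335.3 and 436.5 CPM) and Col1a2 (351.4 and 436.5 CPM). The endothelial Pecam1 and Cdh5 had group means of only 0.942 to 1.75 CPM. The part of these markers in the values of the members was not tested. The summed effector level stood at 8458, 10182, 12365 and 11369 CPM in the controls and at 1314, 2194, 2730 and 1663 CPM after knockdown, in the same order of libraries.

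**Figure D4:**
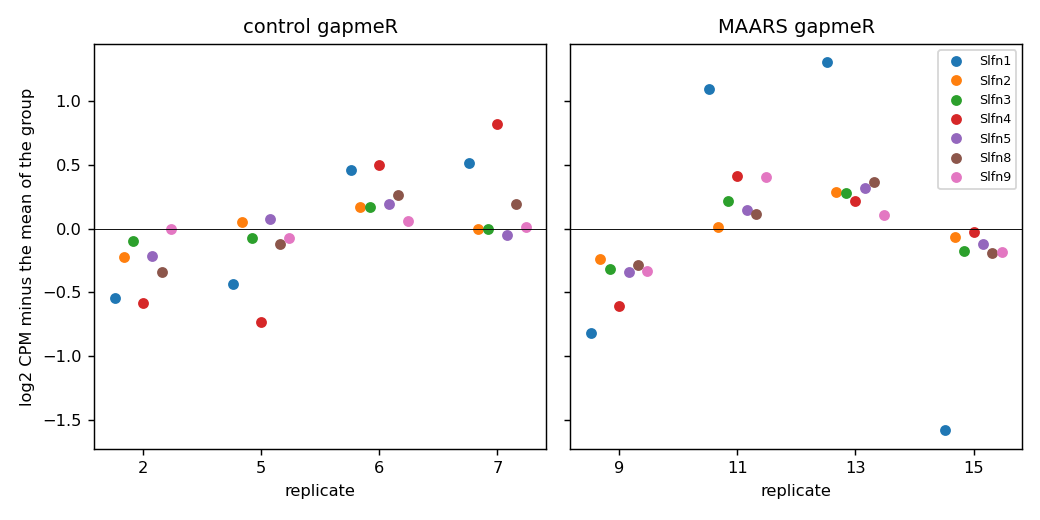
Log2 CPM of each Schlafen gene in each library minus the gene's mean over its own group, for control gapmeR (left) and MAARS gapmeR (right) BMDMs. Slfn1 and Slfn4 are widest in the controls, where replicates 6 and 7 lie above 0 for both, and in the MAARS group replicates 11 and 13 lie above 0 for all 7 genes.

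The profiles of the members over the 8 libraries were also compared by the root mean square difference of their log2 CPM, after the mean of each gene was taken out. The closest pair was Slfn2 and Slfn5 (0.0841), a short and a long member, and the farthest was Slfn1 and Slfn9 (2.45). Near copies were not the nearest in profile, with 0.402 for Slfn8 and Slfn9 and 1.08 for Slfn3 and Slfn4. Of all other genes tested, the 5 closest to the mean profile of the members were Ifi211 (0.114), Gbp3 (0.1204), Ifitm3 (0.128), Gm1966 (0.145) and Phf11b (0.182).

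Single members had other nearest genes. They were Ms4a4c for Slfn1 (0.503), Gm49342 for Slfn2 (0.0339), Bst2 for Slfn3 (0.139), Ly6a for Slfn4 (0.277), Parp12 for Slfn5 (0.0594), H2-T23 for Slfn8 (0.0602) and Prr5l for Slfn9 (0.0967). With 2 groups this measure mostly reflects the size of the group difference.

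Because members resemble each other, the share of reads that could be placed in more than one gene was examined. Aligned coding sequences of Slfn3 and Slfn4 were identical in 92.7% of bases, as were those of Slfn8 and Slfn9. Slfn1 and Slfn2 shared 71.7%, and Slfn5 shared 62.7% with Slfn8 and 63.1% with Slfn9. Exact windows of 100 nt, the length of a read, were shared with the transcripts of another gene in 0% of Slfn1, 0.128% of Slfn2, 0.271% of Slfn4, 2.92% of Slfn3, 3.38% of Slfn8 and 3.71% of Slfn9. In Slfn5 it was 6.4%, of which 388 of 403 windows were shared with the antisense Slfn5os. That gene held 6 counts per group. The partner of Slfn3 was mainly Gm11427, with 93 of 99 windows.

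Slfn8 and Slfn9 shared 50 windows with each other, and 105 and 181 with Slfn10-ps, of which 7.84% was shared. With windows of 50 nt the shares rose to between 0.606% for Slfn1 and 16.0% for Slfn3. How the counting treated reads that map to several places, and whether it used strand, were not given in the sources used here, so values of Slfn3, Slfn4, Slfn5, Slfn8, Slfn9 and Slfn10-ps are uncertain by such reads.

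The study turns on HuR, a protein that binds AU-rich elements, so the pentamer ATTTA was counted in the longest annotated 3′ UTR of each member. It was found in Slfn4 (3 in 922 nt, 3.25 per kb) and in the long members, with 9 in 3136 nt of Slfn5 (2.87 per kb), 4 in 1706 nt of Slfn8 (2.34 per kb) and 5 in 2786 nt of Slfn9 (1.79 per kb). The median over 11542 genes with at least 100 nt of 3′ UTR was 1.27 per kb. Slfn1 (597 nt), Slfn2 (345 nt) and Slfn3 (53 nt) had 0, and that of Slfn3 is below the 100 nt asked of the genes in the median. The nonamer TTATTTATT occurred in Slfn5 alone, once, and in 8.29% of those genes.

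Genes beside the cluster were read to see how far the difference extended. Within 500 kb of the members 22 other genes were tested, of which 8 were called lower, 1 higher and 13 neither (edgeR adjusted p under 0.05), beside 24.0% lower and 21.3% higher over all genes. Their median log2 fold change was -0.10, against 0.01 for all genes. Both tested genes inside the span of the cluster fell, Slfn10-ps and the adjoining Gm11425 (11.6 ± 1.89 to 5.64 ± 0.399 CPM, log2 fold change -1.04, adjusted p = 6.66e-05).

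The nearest tested gene before the cluster, Nle1, a ribosome assembly factor 42938 bp away, was at 8.34 and 7.02 CPM and did not pass (-0.25, adjusted p = 0.091). The nearest after it, AI662270 at 8422 bp, fell slightly (58.1 ± 3.53 to 51.6 ± 2.35 CPM, -0.17, adjusted p = 0.0278), and Gm11427, at 9300 bp, did not pass (-0.06, adjusted p = 0.63). The gene called higher was Rffl, a ubiquitin ligase (0.33, adjusted p = 0.0345), whose groups overlapped, as did those of AI662270. The other genes that fell were all 5 CC chemokines tested, 310624 bp and more beyond the cluster. Ccl5, an interferon-inducible attractant of T cells and monocytes, fell by 3.50 on the log2 scale (SE 0.525, adjusted p = 0.000292), from 63.2 ± 37.1 to 5.59 ± 4.48 CPM, Ccl4 by 1.43 (SE 0.0863, adjusted p = 3.7e-06) and Ccl3 by 0.70 (adjusted p = 4.62e-05). The 15 tested genes that were neither in the span nor chemokines ranged from -0.25 to 1.07. The upper end was 1700020L24Rik, a gene of few reads (0.328 ± 0.227 and 0.701 ± 0.14 CPM) that was not called (edgeR adjusted p = 0.0549).

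**Figure D5:**
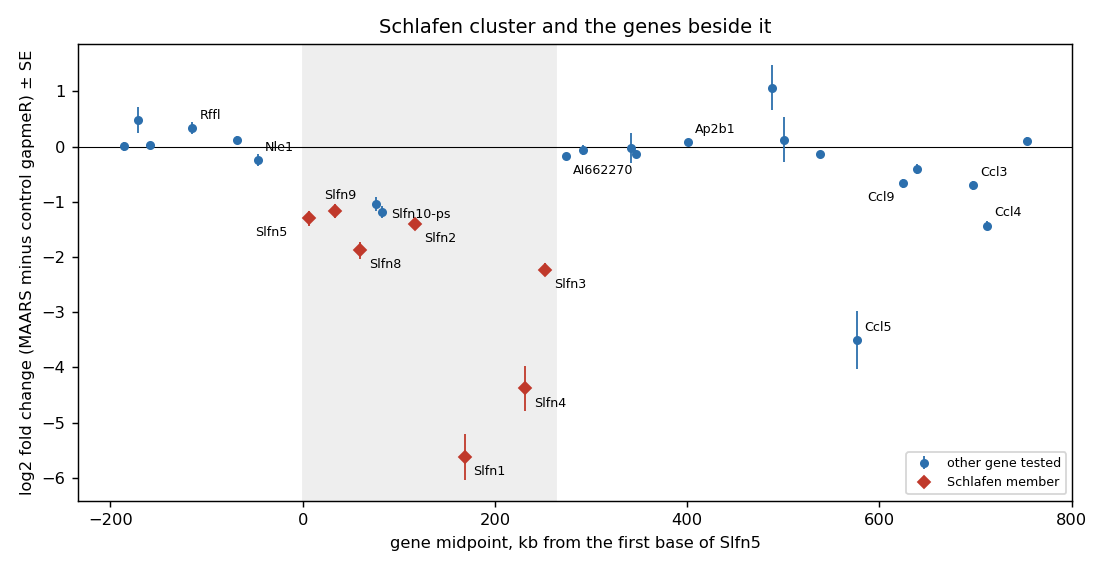
Log2 fold change (MAARS minus control gapmeR, ± SE from edgeR) of genes within 500 kb of the Schlafen cluster against the position of the gene's midpoint, in kb from the first base of Slfn5. The 7 members (red) inside the grey span lie between -5.62 and -1.17, and outside it Ccl5 at -3.50 stands farthest from 0.

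The other genes of the interferon pathway were counted by role, in lists drawn up with earlier results of these data known. Ligands were hardly detected, as Ifna1, Ifna2, Ifna4 and Ifna5 had 0 counts in every library and Ifnb1 at most 2, and 0 were tested. A total of 0 counts allows up to 3. Of the 4 receptors and kinases, Ifnar1, a chain of the type I interferon receptor, rose (141.7 ± 7.75 to 173.7 ± 6.1 CPM, 0.29, edgeR adjusted p = 0.000649), and 2 did not pass. Jak1 was called lower only at the threshold (-0.12, adjusted p = 0.05 after rounding), its groups overlapped, and it was not called in 9 of 14 alternatives (adjusted p of 0.0181 to 0.287), 6 of which left out a library: control replicate 5, 6 or 7 or MAARS replicate 11, 13 or 15.

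All 6 transcription factors were called lower, with a median of -1.11. Irf7, which drives and is driven by interferon, fell from 1344 ± 263.0 to 145.8 ± 77.8 CPM (-3.20, SE 0.346, adjusted p = 3.05e-05). Stat2 (-1.52), Irf9 (-0.71) and Irf1 (-0.68) also fell, and the least was Irf8 (-0.21, adjusted p = 0.0242), whose groups overlapped and whose call was lost in 4 of 14 alternatives (adjusted p of 0.00672 to 0.0829), with upper-quartile factors and without control replicate 6 or MAARS replicate 11 or 15. Of 5 feedback inhibitors 3 fell, Usp18 (-2.31), Socs1 (-1.39) and Ptpn2 (-0.37), and 2 did not pass.

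All 30 interferon-stimulated effectors fell, against 24.0% of all genes, with no overlap in any. Their median was -2.67, and they ranged from -4.66 for Cxcl10, a chemokine, to -0.99 for Eif2ak2, the double-stranded RNA sensor PKR. Those with the smallest p were Sp110 (-2.12), Herc6 (-1.81) and Mx2 (-2.64). Slfn1 lay beyond the range of this list, Slfn4 near its lower end, and Slfn2, Slfn3, Slfn5, Slfn8 and Slfn9 between its median and its upper end.

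Genes of the processes that Schlafen proteins are known for were counted as well. Of 10 tested genes of ribosome stalling and transfer RNA surveillance, 5 fell, 1 rose and 4 did not pass, with a median of -0.25, beside 24.0% lower, 21.3% higher and a median of 0.01 over all genes. The RNase inhibitor Rnh1 fell most (618.1 ± 35.7 to 378.7 ± 25.9 CPM, -0.71, adjusted p = 7.86e-06), and Hbs1l, which rescues stalled ribosomes, rose (0.23, adjusted p = 0.00336). Of 12 quiescence and cell-cycle genes, Klf4 (-1.04), Cdkn1a (-0.58) and Klf2 (-0.32) fell, Foxo3 (0.63), Rb1 (0.57) and Cdkn1b (0.56) rose, and 6 did not pass. Both of these counts of 3 of 12 are near the shares over all genes, so nothing particular to this list is read from them.

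Markers of the labelled cell type and of others that a marrow culture could hold were set beside the members. Macrophage markers summed to 13836 to 17118 CPM in the controls and 17011 to 20241 CPM after knockdown. Most of that sum was Lyz2 (9402 ± 1240 and 13170 ± 1170 CPM), so it follows that gene more than the list. Of the 8 markers, 5 rose, Cd68 fell (-0.34), the interferon-inducible Fcgr1 fell (-2.09) and 1 did not pass. T cell markers summed to 66.3 to 86.3 and 41.4 to 51.7 CPM, of which only Cd4, which macrophages also express, was tested (-0.68), while Cd3g was at 0 and Cd3d and Cd3e had at most 2 counts. Lck had at most 9 counts in a library and Cd5 between 3 and 13.

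B cell markers summed to 1.33 to 2.41 and 1.37 to 1.91 CPM, and 1 of 4 was tested and did not pass (0.03). NK cell markers summed to at most 0.216 and 0.26 CPM with Gzma at 0. Dendritic cell markers summed to 1.02 to 2.60 and 1.34 to 1.65 CPM, and the 1 of 6 tested did not pass (0.45). Stromal and endothelial markers, by level mostly Col1a1 and Col1a2, summed to 439.7 to 1007 and 694.1 to 1196 CPM. Of these 5 markers, 0 were called by edgeR (1 at an unadjusted p under 0.05, 1 by DESeq2 and 0 by limma-voom). The part of any marker in the values of the members was not tested.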

How the data were processed

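Total RNA depleted of ribosomal RNA was sequenced with paired reads of 100 nt in 4 control gapmeR and 4 MAARS gapmeR samples. The authors trimmed reads (Trimmomatic 0.36), aligned them to GRCm38 with STAR 2.5.2b and counted them with featureCounts (Subread 1.5.2), per the labels, and deposited raw counts for 49315 genes. Groups came from the labels. The paper writes the gapmeR amount in nmol and the labels in nM.

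Counts were fitted with edgeR 4.0.16 (filterByExpr with a minimum count of 10 and minimum total of 15, TMM, glmQLFit, glmQLFTest, group only, R 4.3.3), with Benjamini-Hochberg adjustment over 13051 genes. The fit was tested on simulated data. Replicates of a group differed by a chi-square of 4.02 to 14.1 per gene, so none was a duplicate. GENCODE M21 held 99.47% of the genes. Lengths, windows and UTRs came from its transcripts, alignments from Biopython 1.88 and promoters from RefSeq. Windows were searched in transcripts only.

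The members and all lists were chosen with earlier results of these data known. The genes named were the members and relatives, MAARS, those giving each list's range with up to 4 of the smallest p, neighbours within 500 kb with the 3 smallest p in each direction or nearest, and the most alike profiles. Others were added after their values were seen: members of short lists, Ccl5, Gm11425 and Gm11427. Alternatives were RLE and upper-quartile factors, DESeq2 1.42.0, limma-voom (limma 3.58.1), other filters and leaving out each library. Some genes of the lists and the neighbourhood enter the counts but are not reported here by name.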

Additional observations from a re-analysis of the deposited data

Results flagged for a closer look

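Of 168 groups of 4 samples, over the genes named or listed here, 5 held a sample far from the other 3 by Dixon's test, which chance alone gives in about 1 in 20 groups. No Schlafen member was among them. In the MAARS group the highest library stood apart for AI662270 at 55.1 CPM, for Nle1 at 7.68 CPM, for Cxcl10 at 2.21 CPM, for Gbp5 at 11.2 CPM and for Ptpn2 at 25.2 CPM.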

How the results depend on the processing

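Across 14 alternatives to the fit, all 98 log2 fold changes of the members were below zero and 0 moved by as much as the spread between replicates. The refits reuse the libraries on which the members were selected, and leaving out a library can hardly move a group mean by that spread. Nothing is therefore read from these counts. With single libraries left out, Slfn1 ranged from -6.03 to -5.29, Slfn4 from -4.59 to -4.06, Slfn3 from -2.33 to -2.14, Slfn8 from -2.02 to -1.80, Slfn2 from -1.51 to -1.34, Slfn5 from -1.42 to -1.20 and Slfn9 from -1.32 to -1.07. The count of neighbouring genes called higher, 1 in the report, was 3 with upper-quartile factors, 2 with limma-voom and 0 to 3 with a library left out (0 without control replicate 5 or 6 or MAARS replicate 9 or 15, 3 without control replicate 7), and the cause was not tested. The count of interferon pathway genes called lower, 40 in the report, was 38 to 42 over the alternatives. Upper-quartile factors raised the median log2 fold change of all genes by 0.06 and the share of calls that were higher from 47% to 60.4%. Per kb of its longest transcript Slfn3 stood at 25.4 and 5.39 CPM. No paired analysis was possible because the 2 groups share no replicate number. Depth limits MAARS values of Slfn1 and Slfn4 most, with 9 to 63 counts per library, and 1 MAARS gapmeR, 1 time and 1 contrast limit the rest.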
